A study of Mus musculus with 14 samples.

Results

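The integrin and adhesion genes considered here are the 10 genes of the deposited expression values whose symbol is *Itgal*, *Itga4*, *Itga6*, *Itga9*, *Itgav*, *Itgb1*, *Itgb5*, *Itgb7*, *Selplg* or *Icam1*, and all 10 were present among 14329 genes. They were measured by bulk RNA-seq in microglia of the dorsal lumbar spinal cord at day 5 after serum transfer (ST), gated by the authors as CX3CR1+, CD11b+ and CD45low, with 2000 sorted cells per sample. Arthritogenic serum came from K/BxN mice, in which a T cell receptor transgene meets an MHC class II molecule and arthritis develops spontaneously, and Control ST mice received pooled serum of KRN/C57 mice. Recipients were 6-month-old C57BL/6 WT mice or heterozygous TASTPM mice, a transgenic model of Alzheimer's disease that carries, among its transgenes, human APP with the Swedish mutation under the murine Thy-1 promoter. The 14 libraries fell into WT Control ST (n = 3), WT K/BxN ST (n = 4), TASTPM Control ST (n = 3) and TASTPM K/BxN ST (n = 4), and no group received no serum at all. The study's methods name individual mice as its replicates, so the p-values below measure the spread between mice and their libraries. Values are normalised counts, that is, reads divided by 1 scaling factor per library, and the libraries held between 14223015 and 20239175 reads on genes.

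Integrins are cell surface receptors made of 1 alpha and 1 beta chain that bind extracellular matrix or ligands on other cells, and they signal to the cytoskeleton once activated. Leukocytes roll on selectins through P-selectin glycoprotein ligand 1, encoded by *Selplg*, and then arrest through integrins such as LFA-1, which binds ICAM-1. Microglia are known for high expression of *Selplg* and of the chain pair encoded by *Itgav* and *Itgb5*, whereas *Itgal*, *Itga4* and *Itgb7* are best known from circulating leukocytes.

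The libraries were not uniform, which touches every result below. In libraries 1 and 2 of each K/BxN ST group *Lyz2*, a lysozyme gene of monocytes and macrophages, lay between 258065 and 536223 normalised counts, against 8743 to 22933 in the other 10 libraries. Summed over a list of 12 monocyte markers, these 4 libraries (termed *Lyz2*-high) carried 2.29% to 4.30% of reads and the other 10 carried 0.0544% to 0.143%. *Lyz2* is itself on that list and made up 67.9% to 95.6% of its reads, and the other 11 markers alone carried 0.511% to 1.04% and 0.00341% to 0.00717%. Over 11 neutrophil markers the shares were 0.0623% to 1.32% and 0.0243% to 0.0708%, and over 7 border macrophage markers 0.0697% to 0.210% and 2.81e-05% to 0.0116%. Markers of microglia (12 genes) moved the other way, with at most 4.96% in the *Lyz2*-high libraries and 6.0% to 7.70% in the other 10, and *Tmem119*, a defining microglial gene, was read in every library. Dendritic cell markers (4 of 6 analysed) carried 0.00462% to 0.0467% of reads in the *Lyz2*-high libraries and at most 0.00134% in the other 10. The neutrophil gene *Ly6g* was at 0 in every Control ST library, as were the monocyte markers *S100a4* and *Vcan* in WT Control ST. None of 10 T and NK cell markers and 2 of 6 B cell markers were among the genes analysed. Since no Control ST library was *Lyz2*-high, the serum and this state cannot be told apart in the full groups, and values without the 4 libraries are given beside the results. In bulk samples fewer cells of a type and less RNA per cell cannot be told apart.

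Promoters are shown for 2 pairs of genes that encode the chains of a known heterodimer. *Itga4* and *Itgb7* were higher in every *Lyz2*-high library than in every other, as were 965 of 12645 tested genes. *Itgav* and *Itgb5* were lower there, as were 317. Whether the genes of a pair vary together outside that split was not tested. *Itga4* and *Itgb7* encode the α4 and β7 chains, which pair in a receptor for the gut addressin MAdCAM-1, and *Itgav* and *Itgb5* encode the chains of a vitronectin receptor. The sequences are from RefSeq (GRCm38.p6), run 5′ to 3′ on the gene's strand, and cover 250 bases before and 50 bases after the annotated start. The table held promoters for 7 of the 10 genes, *Itgal*, *Itga6* and *Selplg* being the others. Capitals mark a match, on either strand, to 1 of 5 motifs: TGTGGT (RUNX), AGGAAGT (PU.1), GGGCGG (SP1), GGAANNTCC (NF-kB) or TATAAA (the box of that name).
Itga4: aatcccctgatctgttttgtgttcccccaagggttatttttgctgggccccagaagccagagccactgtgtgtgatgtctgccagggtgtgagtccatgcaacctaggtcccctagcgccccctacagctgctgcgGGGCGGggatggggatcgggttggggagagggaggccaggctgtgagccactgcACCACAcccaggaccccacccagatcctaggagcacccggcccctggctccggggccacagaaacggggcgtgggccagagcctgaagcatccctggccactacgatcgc
Itgb7: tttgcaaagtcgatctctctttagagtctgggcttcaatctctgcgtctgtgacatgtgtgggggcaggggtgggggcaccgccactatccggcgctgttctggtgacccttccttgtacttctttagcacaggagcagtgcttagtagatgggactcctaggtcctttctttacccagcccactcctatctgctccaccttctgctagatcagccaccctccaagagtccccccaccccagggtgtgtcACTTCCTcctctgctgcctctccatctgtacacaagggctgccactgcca
Itgav: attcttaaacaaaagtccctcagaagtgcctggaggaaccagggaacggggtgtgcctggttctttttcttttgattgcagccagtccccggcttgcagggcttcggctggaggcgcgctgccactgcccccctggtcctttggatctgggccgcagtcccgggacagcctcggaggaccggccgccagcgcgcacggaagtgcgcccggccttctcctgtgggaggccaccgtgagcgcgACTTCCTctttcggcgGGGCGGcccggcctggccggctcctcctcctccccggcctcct
Itgb5: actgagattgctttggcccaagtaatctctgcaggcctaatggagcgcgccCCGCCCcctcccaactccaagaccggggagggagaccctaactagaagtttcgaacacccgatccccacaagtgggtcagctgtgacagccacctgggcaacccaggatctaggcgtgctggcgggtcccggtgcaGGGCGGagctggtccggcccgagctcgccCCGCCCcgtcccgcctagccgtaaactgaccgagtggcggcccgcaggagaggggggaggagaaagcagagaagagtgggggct

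These windows lie at chr2:79255176-79255475 (plus strand), chr15:102231886-102232185 (minus strand), chr2:83724147-83724446 (plus strand) and chr16:33829415-33829714 (plus strand). The *Itga4* promoter held an SP1 match beginning at base -114 and a reverse-strand RUNX match (ACCACA) beginning at -60, counted from the annotated start. The *Itgb7* promoter held 1 reverse-strand PU.1 match (ACTTCCT) beginning at base 1, and the *Itgav* promoter held the same letters beginning at -9 and an SP1 match beginning at 8. The *Itgb5* promoter held 3 SP1 matches and none to the other motifs, and no NF-kB or TATAAA match was found in any of the 4 windows. Of 32851 promoters of the same length, 35.7% held the SP1 letters, 16.8% the RUNX letters, 13.6% the TATAAA letters, 9.35% the PU.1 letters and 4.26% the NF-kB letters. GC content was 64.3% in *Itga4*, 56.3% in *Itgb7*, 67.3% in *Itgav* and 65.7% in *Itgb5*, against a median of 52.7% over all promoters. A match is a stretch of letters and was not tested as a binding site.

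Per kilobase of exon, the 10 genes ranged from very abundant to barely read. *Selplg* was highest, with a median of 30993 normalised counts per kilobase over the 14 libraries (range 12057 to 37582), followed by *Itgb5* at 8372 (2927 to 9960). *Itgb1*, the shared partner chain of many alpha chains, stood at 1213 (878 to 1569), and *Icam1* at 707 (387 to 1083). The alpha chains *Itga6*, *Itgav* and *Itga9* had medians of 439.6, 237 and 173 per kilobase. *Itgb7* (37.4, range 0.329 to 3222), *Itga4* (7.39, range 0 to 82.8) and *Itgal* (0.534, range 0 to 389) closed the order. *Selplg* exceeded *Itgb5* in 14 of 14 libraries, and so did *Icam1* exceed *Itga6* and *Itga6* exceed *Itgav*, while *Itgav* exceeded *Itga9* in 13. The last steps of the order did not hold within their spread, since *Itga9* exceeded *Itgb7* in 10 of 14 libraries, *Itgb7* exceeded *Itga4* in 11 and *Itga4* exceeded *Itgal* in 7.

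**Figure D1:**
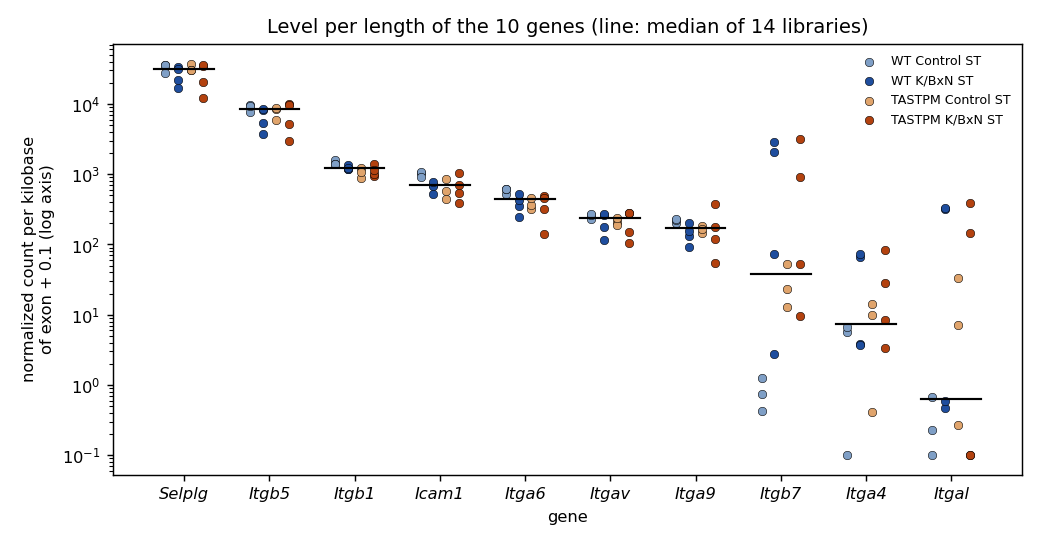
Normalised counts per kilobase of exon plus 0.1 (log axis) for the 10 genes (x axis) in each of 14 libraries, coloured by group, with the median of the 14 libraries as a line. *Selplg* has the highest median, 30993, and *Itgal* the lowest, 0.534, and the 3 genes on the right spread far more between libraries than the 7 on the left.

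Among the genes best known from circulating leukocytes, *Itgb7* showed the widest differences between libraries. It lies at chromosome 15, 102124429 to 102140379 on the minus strand (GRCm39), and its protein pairs with the α4 chain or with the product of *Itgae*. The WT Control ST libraries held 1.87, 3.35 and 0.955 normalised counts of it, and those of WT K/BxN ST held 8399, 5968, 211 and 7.63. The TASTPM Control ST libraries held 36.6, 66.6 and 153, and those of TASTPM K/BxN ST held 9349.5, 2606, 150.4 and 27.1. All 4 WT K/BxN ST libraries were thus above all 3 WT Control ST libraries, the lowest of them by a few reads only, while in TASTPM the groups overlapped and 2 of 4 K/BxN ST libraries were above all controls.

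*Itgal* and *Itga4* followed the same libraries. *Itgal* (chromosome 7, 126895432 to 126934320) encodes the alpha chain of LFA-1, and the WT K/BxN ST libraries held 2093, 2150.4, 2.39 and 3.27 normalised counts against 3.75, 0.838 and 0 in their controls. In TASTPM the K/BxN ST libraries held 2562, 958, 0 and 0 against 46, 1.11 and 217 in the controls. Outside the *Lyz2*-high libraries, *Itgal* therefore passed 10 normalised counts in 2 libraries, both of them TASTPM Control ST. *Itga4* (chromosome 2, 79085660 to 79163467) gave 1124, 1208, 63.3 and 60 under K/BxN ST in WT, against 0, 94.7 and 109.8 in the WT controls. The TASTPM values were 1386, 475, 137 and 54.2 under K/BxN ST against 5.22, 239.8 and 164 in the controls. *Itga4* was read in 13 of 14 libraries, in contrast to the more split *Itgal*.

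All 3 genes were higher in each *Lyz2*-high library than in each of the other 10, a pattern shown by 7.63% of tested genes (965 of 12645), a set that holds *Itga4* and *Itgb7* but not *Itgal*. *Itgb7* spanned 2606 to 9349.5 in the *Lyz2*-high libraries and 0.955 to 211 in the other 10, *Itgal* 958 to 2562 and 0 to 217, and *Itga4* 475 to 1386 and 0 to 239.8. *Fn1*, encoding the integrin ligand fibronectin, was split in the same way, with 2579.6 to 9931 in the *Lyz2*-high libraries and 0.838 to 85.5 elsewhere, and *Itga1*, a collagen receptor chain, 167 to 400.4 and 0 to 1.09. *Ly6c2* and *Ccr2*, defining genes of classical monocytes, were at 12898 to 29133 and 8537 to 27035 in the *Lyz2*-high libraries and at 1.87 to 17.8 and 3.13 to 86.0 in the other 10, although the study's methods define the sorted microglia as negative for CCR2 and Ly6C. The part of these markers in the 3 integrin genes was not tested, and the split of the libraries is defined by another gene, so it is a description and not a comparison of conditions.

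**Figure D2:**
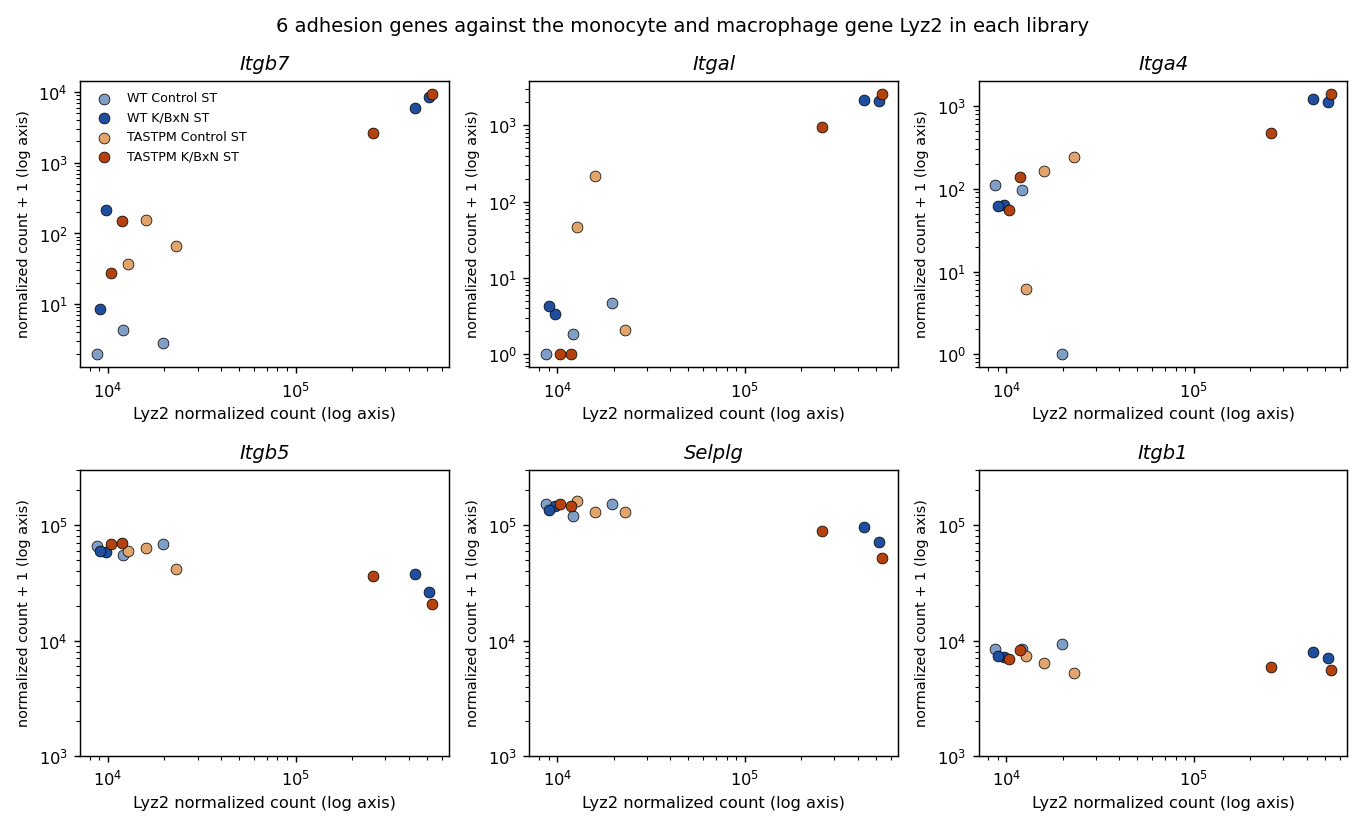
Normalised count plus 1 of 6 genes (y axes, log) against the *Lyz2* normalised count (x axes, log) in 14 libraries coloured by group. The 4 libraries on the right, 2 from each K/BxN ST group, are the highest for *Itgb7*, *Itgal* and *Itga4* and the lowest for *Itgb5* and *Selplg*, while *Itgb1* overlaps between both sides.

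A second set of genes, all well read in the control libraries, showed the opposite split. *Selplg* (chromosome 5, 113956597 to 113970705, minus strand) was at 71233, 95314, 145411 and 134657 under K/BxN ST in WT, against 151714, 119803 and 151616 in the WT controls. The TASTPM values were 51569, 88404, 146683 and 153090.5 under K/BxN ST, against 160738, 130359 and 130458 in the controls. The low values were those of the *Lyz2*-high libraries in both genotypes, and the other K/BxN ST libraries lay inside the control range of their genotype.

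*Itgb5* (chromosome 16, 33649988 to 33771137) gave 26118, 37971, 58673 and 59613 under K/BxN ST in WT, against 68388, 54377 and 65767 in the WT controls. The TASTPM libraries gave 20662, 36445, 70318 and 68491 under K/BxN ST, against 59538, 41433 and 62516 in the controls. Its partner chain *Itgav* (chromosome 2, 83554403 to 83637260) gave 1426, 2218, 3218 and 3345 under K/BxN ST in WT, against 2876, 3185 and 3388 in the WT controls. In TASTPM *Itgav* was at 1288, 1872, 3436 and 3452 under K/BxN ST, against 2558, 2323 and 2962 in the controls. For both chains only the remaining libraries of TASTPM K/BxN ST, numbers 3 and 4, exceeded their controls. *Itga9* (chromosome 9, 118435722 to 118730072), whose product pairs with the β1 chain and binds tenascin C and osteopontin, was at 716, 1017, 1548 and 1217 under K/BxN ST in WT, against 1579, 1708 and 1755 in the WT controls. In TASTPM it was at 415, 925, 2945 and 1384 under K/BxN ST, against 1115, 1422 and 1294 in the controls. Library 3 of TASTPM K/BxN ST held the highest *Itga9* value of all 14.

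*Selplg*, *Itgb5*, *Itgav* and *Itga9* were each lower in every *Lyz2*-high library than in every one of the other 10, which holds for 2.51% of tested genes (317 of 12645). *Selplg* spanned 51569 to 95314 against 119803 to 160738, *Itgb5* 20662 to 37971 against 41433 to 70318, *Itgav* 1288 to 2218 against 2323 to 3452 and *Itga9* 415 to 1017 against 1115 to 2945. Microglial markers were lower in the same 4 libraries, *Tmem119* being at 42292 to 84054 against 120565 to 162963, and their part in these values was not tested. *Itgb2*, which encodes the β2 chain of LFA-1 and of the CD11b receptor, spanned 12537 to 22905 over all 14 libraries and was at 19127 to 21661 in the *Lyz2*-high ones. *Itgam*, which encodes CD11b, is an antigen of the sort gate and is no finding here, with 3246 to 9929.

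**Figure D3:**
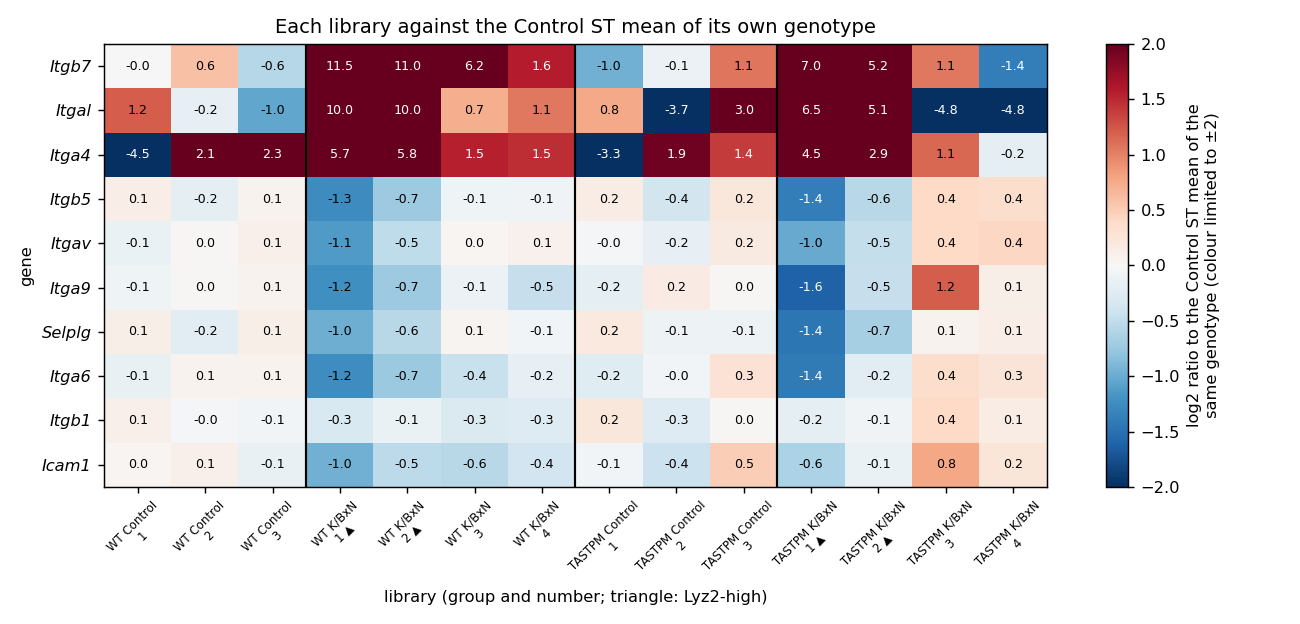
Log2 ratio of each library (columns, by group) to the Control ST mean of its own genotype for the 10 genes (rows), taken on log2(normalised count + 1), with the colour limited to ±2 and the value printed in each cell. Triangles mark the 4 *Lyz2*-high libraries, which are high for the upper 3 genes and low for most of the others, while *Itgb1* differs little between them and the rest.

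The remaining 3 genes, *Itga6*, *Itgb1* and *Icam1*, did not fully separate the *Lyz2*-high libraries from the rest and were high in WT Control ST. *Itga6* came close to a separation, with 1614 to 3960 in the *Lyz2*-high libraries and 3621 to 7010 in the other 10. Medians on the 2 sides were 3234 and 5387 for *Itga6*, 6486 and 7329 for *Itgb1* and 2645 and 4021 for *Icam1*. *Itga6* (chromosome 2, 71575960 to 71689757), the alpha chain of a laminin receptor, was at 6009.6, 7010.5 and 6959.6 in the WT controls, against 2801, 3959.8, 4866 and 5955 under K/BxN ST. The TASTPM controls were at 3621, 4156 and 5273 and the TASTPM libraries under K/BxN ST at 1614, 3668, 5502 and 5140.0. *Itgb1* (chromosome 8, 129411876 to 129460618) was at 9367, 8469.9 and 8387 in the WT controls, against 7033, 7978, 7162 and 7338 under K/BxN ST. The TASTPM controls were at 7320.4, 5244 and 6381 and the TASTPM libraries under K/BxN ST at 5538, 5940.0, 8239 and 6932. Both genes were higher in each WT Control ST library than in each of the other 11, as were 0.625% of tested genes (79 of 12645).

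*Icam1* (chromosome 9, 20926672 to 20940113) encodes the ligand of LFA-1 and of the CD11b receptor. It was at 5187, 5383 and 4553 in the WT controls, against 2579, 3513, 3408 and 3864 under K/BxN ST, so the groups did not overlap in WT. The TASTPM controls were at 2868, 2212 and 4178 and the TASTPM libraries under K/BxN ST at 1925, 2711, 5114 and 3514, which overlapped, and library 3 of TASTPM K/BxN ST reached the range of WT Control ST.

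**Figure D4:**
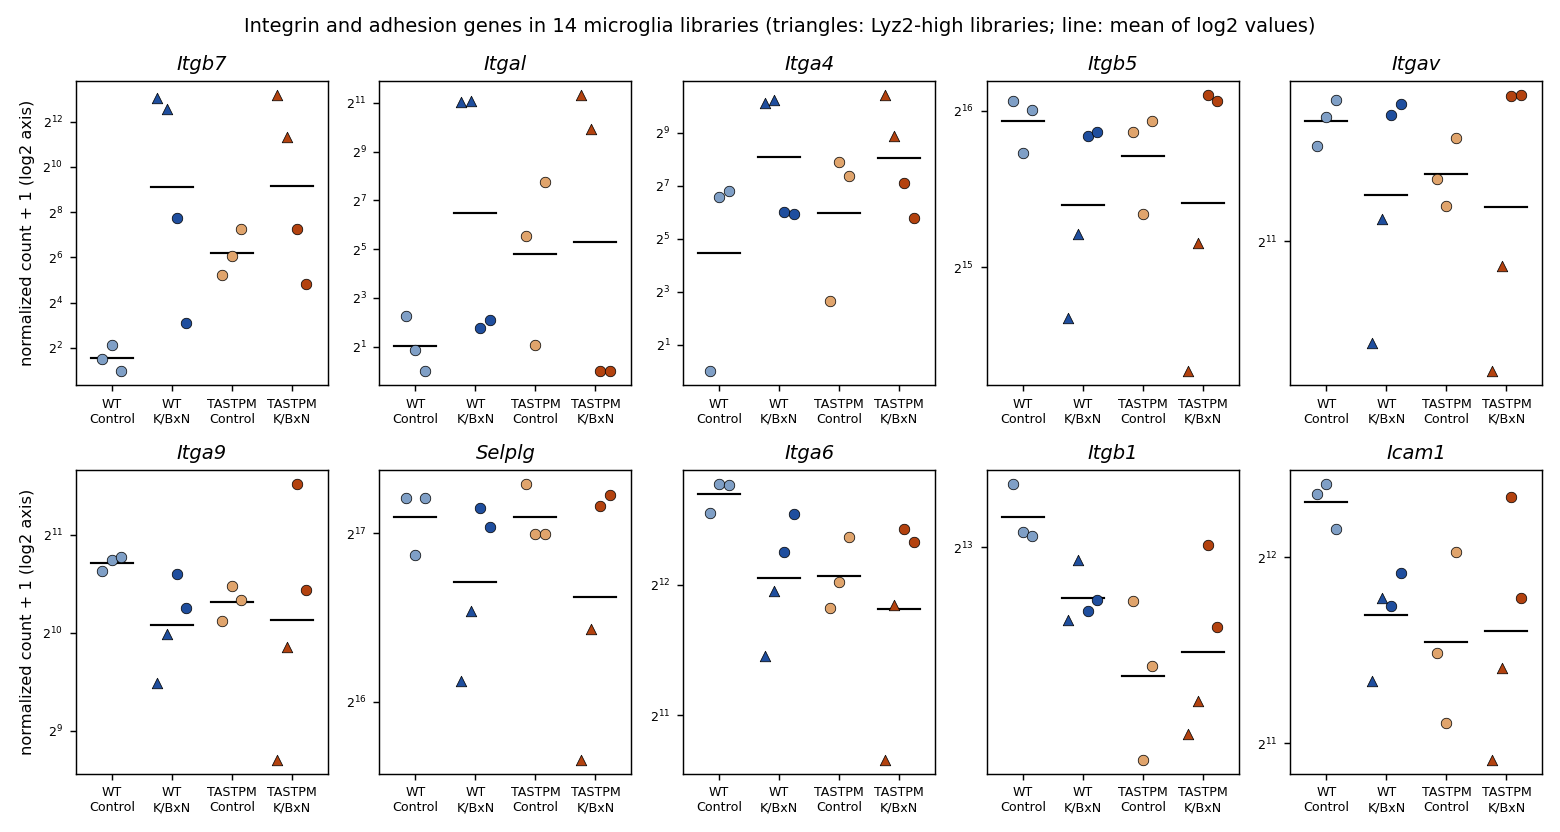
Normalised count plus 1 (y axes, log2) of the 10 genes in each library by group, with triangles for *Lyz2*-high libraries and a line at the mean of the log2 values. For *Itgb1* and *Itga6* the WT Control ST points are above all other points, and for *Itgb7* they are below all other points.

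To ask how K/BxN serum relates to these genes in WT, groups were compared with limma on log2(normalised count + 1) over the 12645 genes that had 10 or more reads in 7 or more libraries, a filter that 9 of the 10 passed and *Itgal* did not. None of the 9 was called (adjusted p under 0.05 with an absolute log2 fold change above 1), against 1 of all 12645 genes (0.00791%), and 1 of the 9 had an unadjusted p under 0.05, while over all genes 4.77% were higher and 2.36% lower at that level. That 1 was *Itgb7*, with a log2 fold change of 7.57 (SE 2.14, 95% interval 2.99 to 12.1, adjusted p = 0.477 by limma, exact two-sided permutation p = 0.0571). DESeq2, tried as an alternative, called *Itgb7* (log2 fold change 10.79, adjusted p = 1.96e-06) among 127 of the 12645 genes (1.0%; 275 of 14329, or 1.92%, without the filter). *Itgal*, outside those 12645 genes, was called by DESeq2 when fitted with the genes that failed the filter (9.45, adjusted p = 0.0338) and without the filter (9.45, adjusted p = 0.0215), and edgeR's quasi-likelihood test called none of the 12645, with 782 at an unadjusted p under 0.05. Without the *Lyz2*-high libraries the *Itgb7* difference was 3.88 (adjusted p = 1.0 by limma), resting on 211 and 7.63 normalised counts against at most 3.35, and 1 of the 9 genes, *Itgb7*, was higher at an unadjusted p under 0.05, as were 2.4% of all genes. *Itgal* differed by 5.45 (95% interval -1.07 to 11.96, adjusted p = 0.733 by limma) with all libraries and by 0.89 without the *Lyz2*-high ones. *Itga4* differed by 3.62 (SE 1.79, adjusted p = 0.703 by limma) and by 1.51 without those libraries, and by 1.39 without WT Control ST library 1, where it had no read.

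The log2 fold changes of the other 7 genes in WT were all negative, and the median of the 9 tested was -0.38 against 0.06 over all genes tested. *Itga6*, *Itga9*, *Itgb1* and *Icam1* were lower in every WT K/BxN ST library than in every WT Control ST library, a pattern of 3.71% of tested genes, and *Itgb7* alone of the 10 was higher in every one, as were 3.67%. The microglial marker share was 3.30% to 7.34% of reads under K/BxN ST in WT, against 7.30% to 7.70% in the WT controls, and its part in these values was not tested. *Icam1* differed by -0.61 (95% interval -1.23 to 0.02, adjusted p = 0.699 by limma), and its exact two-sided permutation p was 0.0286, the smallest that 35 splits allow. *Itga6* differed by -0.65 (-1.42 to 0.12), *Itga9* by -0.63 (-1.63 to 0.37) and *Itgb1* by -0.24 (-0.62 to 0.13), with adjusted p of 0.732, 0.776 and 0.774 by limma. Without the *Lyz2*-high libraries the same 4 genes did not overlap, where 8.84% of genes do so with 2 against 3 libraries, and the differences were -0.47 for *Icam1*, -0.30 for *Itga6*, -0.29 for *Itga9* and -0.27 for *Itgb1*, each with an adjusted p of 1.0. With library totals in place of the deposited scaling, *Itgb1* and *Icam1* did not overlap and *Itga6* and *Itga9* did. *Selplg* differed by -0.38, *Itgav* by -0.38 and *Itgb5* by -0.54, and without the *Lyz2*-high libraries by -0.0028, 0.062 and -0.081. Without WT K/BxN ST library 1 alone these 3 differences were -0.19, -0.13 and -0.29.

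In TASTPM none of the 9 genes was called and none of all 12645 (0.0%), 0 of the 9 had an unadjusted p under 0.05 (2.62% of all genes were higher and 1.6% lower at that level), and edgeR called none while DESeq2 called 16 genes (0.127%; 0.614% without the filter) and none of these 10. No gene of the 10 separated the groups, where 2.67% of tested genes were higher and 2.74% lower in every K/BxN ST library. *Itgb7* differed by 2.96 (95% interval -1.62 to 7.53), *Itga4* by 2.09 (-1.74 to 5.91) and *Itgal*, fitted with the genes that failed the filter, by 0.51 (-6.01 to 7.02). *Itga4* differed by 0.42 without TASTPM Control ST library 1, where it was at 5.22, and *Itgb7* by 1.61 without TASTPM K/BxN ST library 1. *Selplg* differed by -0.48 (-1.27 to 0.32), *Itgb5* by -0.30 (-1.16 to 0.56), *Itga6* by -0.26, *Itga9* by -0.18 and *Itgav* by -0.17, while *Itgb1* (0.07) and *Icam1* (0.06) were near 0. The *Selplg* difference was -0.15 without TASTPM K/BxN ST library 1. Without the *Lyz2*-high libraries *Itgb7* was at -0.16 and *Itgal* at -4.80, *Itga4* was at 0.48, *Itgb1* at 0.27 and *Icam1* at 0.51, and *Itga6* (0.31), *Itga9* (0.67), *Itgav* (0.40), *Itgb5* (0.37) and *Selplg* (0.10) turned positive, with adjusted p of at least 0.996 by limma. Of the 9, *Itga9* and *Itgav* were then higher at an unadjusted p under 0.05, as were 1.83% of all genes. In that setting *Itgav* and *Itgb5* were higher in both remaining K/BxN ST libraries than in all 3 controls, as were 9.46% of genes, and *Itgal* was lower, as were 9.32%. *Itgal* is not among the tested genes and had 0 reads in both of these libraries, against 1 read in TASTPM Control ST library 2.

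**Figure D5:**
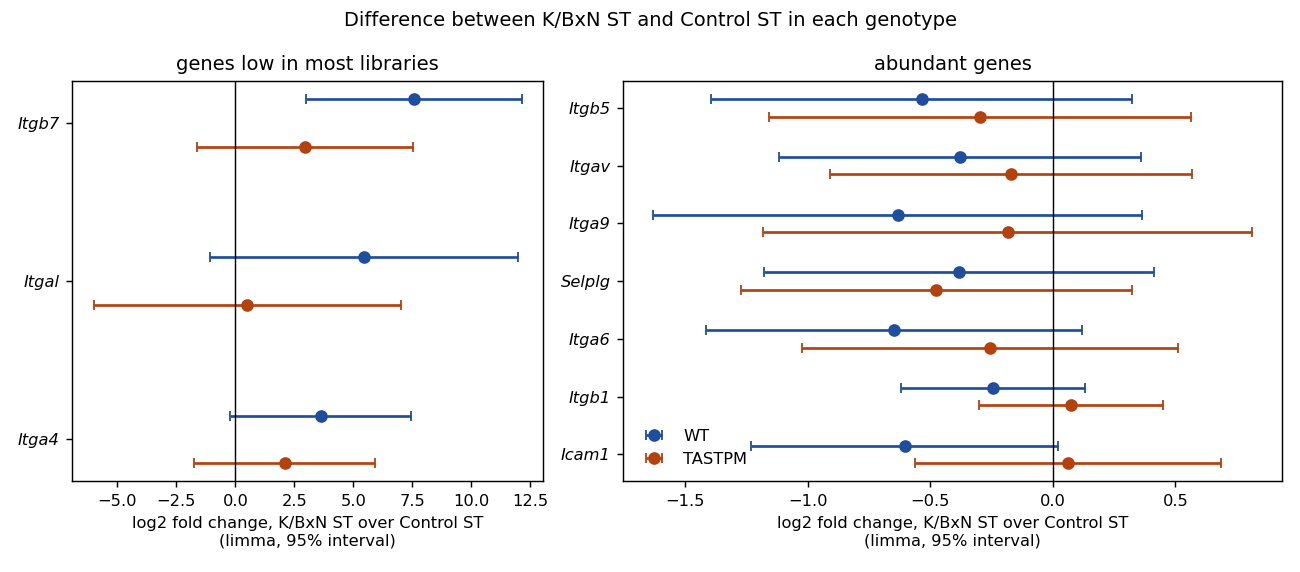
Log2 fold change of K/BxN ST over Control ST (x axes) with its 95% interval from limma for the 10 genes (y axes), in WT (blue) and TASTPM (orange). The interval of *Itgb7* in WT, 2.99 to 12.1, is the only one that leaves out 0, and its adjusted p is 0.477.

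Whether the serum difference itself depended on genotype was tested as an interaction, and none of the 9 genes was called, nor was any of all genes (0.0%). None of the 9 reached an unadjusted p under 0.05, a level at which 1.42% of all genes had a positive and 1.63% a negative interaction. The smallest unadjusted p-values of the 9 were those of *Itgb7* at -4.61 (95% interval -11.1 to 1.86, adjusted p = 0.999 by limma) and *Icam1* at 0.67 (-0.22 to 1.55, adjusted p = 0.999 by limma). The term of *Itgb7* was -4.05 without the *Lyz2*-high libraries, and 4 of the 9 genes, *Icam1* (0.98), *Itga9* (0.96), *Itga6* (0.61) and *Itgb1* (0.54), then had a positive term at an unadjusted p under 0.05, as had 1.77% of all genes, each with an adjusted p of 0.998 by limma. The term of *Itga4* was -1.53 (95% interval -6.95 to 3.88), and that of *Itgal*, which failed the filter, was -4.94 (-14.2 to 4.27), against -1.03 and -5.69 without those libraries. Without WT Control ST library 1 the *Itga4* term was 0.70. Without TASTPM K/BxN ST library 3 the terms of *Itga9* and *Icam1* were -0.016 and 0.43, against 0.45 and 0.67 with all libraries. DESeq2 called 12 genes for the interaction (0.0949%; 0.251% without the filter), none of them among the 10, and edgeR called none.

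TASTPM was compared with WT under Control ST, a comparison that shares its 3 WT Control ST libraries with the WT serum comparison and in which no library was *Lyz2*-high. None of the 9 genes was called and none of 12645 (0.0%), and 2 of the 9 were lower at an unadjusted p under 0.05, as were 2.16% of all genes, while none was higher at that level, as were 3.41%. DESeq2 called 41 genes (0.324%; 0.586% without the filter), none of them among the 10, and edgeR none. The 2 were *Itgb1*, at -0.48 (95% interval -0.88 to -0.08, adjusted p = 0.815 by limma), and *Icam1*, at -0.75 (-1.42 to -0.09, adjusted p = 0.826 by limma). Leaving out the *Lyz2*-high libraries keeps these differences as they are and changes only the spread shared with the K/BxN ST groups. In that setting *Itga6*, *Itgb1* and *Icam1* were lower and *Itgb7* was higher at an unadjusted p under 0.05. Their adjusted p were 0.646, 0.655, 0.655 and 0.649 by limma. Of all 12645 genes, 346 were lower and 425 higher at that level. *Itga6* (-0.63), *Itga9* (-0.40), *Itgb1* and *Icam1* were lower in all 3 TASTPM Control ST libraries than in all 3 WT Control ST libraries, as were 4.71% of tested genes. *Itgb7* was higher in all 3 (log2 fold change 4.65, adjusted p = 0.883 by limma), as were 4.97%. The exact two-sided permutation p of each of these 5 genes was 0.1, the smallest that 3 against 3 allows. Marker lists also separated these groups. Microglial markers carried 6.0% to 7.20% of reads in TASTPM Control ST, all below the 7.30% to 7.70% of WT Control ST, the same direction as *Itga6*, *Itga9*, *Itgb1* and *Icam1*. Dendritic cell markers carried 0.000809% to 0.00134% in TASTPM Control ST, all above the 4.94e-06% to 0.000289% of WT Control ST, the same direction as *Itgb7*, and neutrophil markers 0.0243% to 0.0410% and 0.0436% to 0.0691%, the opposite direction. The dendritic cell shares are small sums, 141 to 220 normalised counts in TASTPM Control ST and 0.838 to 52.5 in WT Control ST, with *Clec9a* at 0 in both. Border macrophage markers (0.00115% to 0.0116% and 0.000553% to 0.00125%) and monocyte markers (0.0785% to 0.143% and 0.0544% to 0.116%) overlapped, and the part of these markers in the values of the 5 genes was not tested. *Selplg* had means of 140518 and 141044 in TASTPM and WT, a log2 difference of -0.0039 with a 95% interval of -0.85 to 0.85 (SE 0.398). That interval uses a spread shared with the K/BxN ST groups, and without the *Lyz2*-high libraries the SE of the same difference was 0.143.

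Between TASTPM K/BxN ST and WT K/BxN ST, no gene of the 10 separated the groups, where 1.16% of tested genes were higher and 0.672% lower in every TASTPM library. None of the 9 genes was called and none of 12645 (0.0%), and 0 of the 9 were under an unadjusted p of 0.05, a level that 1.0% of genes passed as higher and 0.902% as lower. The smallest p of the 9 was that of *Itgb1* (log2 fold change -0.16, 95% interval -0.51 to 0.18). Its difference was 0.060 without the *Lyz2*-high libraries and -0.27 without TASTPM K/BxN ST library 3. Neither edgeR nor DESeq2 called a gene. Without the *Lyz2*-high libraries *Itgav*, *Itgb5* and *Selplg* were higher and *Itgal* lower in both TASTPM libraries than in both WT libraries, where 16.8% of tested genes are higher and 17.0% lower. *Itgal*, which is not among the tested genes, had 0 and 0 reads there against 2 and 3 reads, so its order rests on the floor.

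The partners and ligands of these receptors were read from 4 gene lists. Of 19 other integrin genes, 8 were among the genes analysed and 6 passed the filter, of which none was called in any comparison and none had an unadjusted p under 0.05. *Itgax*, encoding CD11c, was at 49.7, 91.4 and 188 in the WT controls and at 331, 426, 290.3 and 451 under K/BxN ST, without overlap (3.67% of tested genes), but its log2 fold change of 1.94 (SE 1.17) had an adjusted p of 0.742 by limma, and it was 1.92 without the *Lyz2*-high libraries. In TASTPM *Itgax* was at 406, 236, 3.52 and 396 under K/BxN ST and at 267, 289.8 and 211 in the controls, which overlapped, and its log2 fold change was -1.15 (adjusted p = 0.964 by limma), and -2.59 without the *Lyz2*-high libraries. Both values rest on library 3 of TASTPM K/BxN ST, with 3 reads, without which the difference was 0.40. *Itgb3*, encoding a further beta chain that can pair with the αv chain, was at 1087, 1204 and 1513 in the WT controls and at 946, 757, 985 and 2091 under K/BxN ST (-0.19, and 0.19 without the 4 libraries). In TASTPM it was at 233, 746, 821 and 1085 under K/BxN ST and at 791, 653 and 1270 in the controls (-0.47, and 0.12 without them). The WT difference leans on the high value of WT K/BxN ST library 4 and that of TASTPM on the low value of TASTPM K/BxN ST library 1. *Itgae*, whose product pairs with the β7 chain, differed by -0.78 in WT and -1.10 in TASTPM, and *Itga5*, encoding a fibronectin receptor chain, by 0.38 and 0.29, all with overlapping groups (-0.20 and -1.06 for *Itgae*, and 0.41 and -0.30 for *Itga5*, without the 4 libraries). In WT *Itgae* differed by -0.024 without WT Control ST library 2, and in TASTPM *Itga5* differed by -0.14 without TASTPM Control ST library 2. The WT difference of *Itga5* was 0.10 without WT K/BxN ST library 1 and 0.67 without WT K/BxN ST library 2. Of 32 ligands and counter-receptors, 14 were tested and none was called. In WT *Icam2*, a further LFA-1 ligand, had the smallest p among them (log2 fold change 2.96, adjusted p = 0.696 by limma), with 302, 315, 45.4 and 58.9 under K/BxN ST and 152, 0 and 27.7 under Control ST, and its log2 fold change was 1.69 without the *Lyz2*-high libraries, 0.95 without WT Control ST library 2, which had no read, and 4.58 without WT Control ST library 1. *Spp1*, encoding the ligand osteopontin, was at 3499, 2166, 837 and 74.1 under K/BxN ST in WT (controls 442, 119.9 and 270.3) and at 3204, 1126, 309 and 68.8 in TASTPM (controls 359, 3.33 and 165), so its 2 highest libraries in each genotype were *Lyz2*-high, and its differences of 1.77 and 3.05 were 0.040 and 1.21 without them. The TASTPM difference was 1.11 without TASTPM Control ST library 2, which had 3 reads, and that of WT was 1.08 without WT K/BxN ST library 1 and 2.92 without library 4. *Thbs1*, encoding the matrix protein thrombospondin 1, had the next smallest p in WT after *Icam2* (3.40, adjusted p = 0.698 by limma, and 2.40 without the 4 libraries), with 1130.0, 538, 136 and 277 under K/BxN ST and 226, 0 and 222 in the controls, which overlapped, and it differed by 0.80 without WT Control ST library 2, which had no read. *F11r*, encoding the junctional adhesion molecule JAM-A, was at 17684, 22756, 31852 and 32634 under K/BxN ST in WT, all below its controls at 37802, 35723 and 36918 (-0.53, adjusted p = 0.760 by limma, and -0.19 without the 4 libraries), as were 3.71% of tested genes. In TASTPM *F11r* was at 9481, 20468, 28933 and 30022 against 39028, 28596 and 29422, which overlapped (-0.66, adjusted p = 0.964 by limma, and -0.12 without them). *Vcam1*, the ligand of the α4β1 receptor, ranged from 146 to 1050.0 with overlapping groups in both genotypes, and differed by 0.62 in WT and 0.65 in TASTPM (0.92 and 0.71 without the 4 libraries). Without WT Control ST library 1 its difference in WT was 0.020, and without library 4 of WT K/BxN ST it was 0.29.

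Of 42 genes of integrin activation and adhesion signalling, 34 were tested and none was called. The integrin activators *Tln1* and *Fermt3* differed by 0.40 and 0.01 (log2) in WT and by 0.20 and 0.14 in TASTPM, with adjusted p of at least 0.758 by limma. Without the 4 libraries they differed by 0.0085 and 0.040 in WT and by -0.047 and 0.29 in TASTPM. *Zyx*, encoding a focal adhesion protein, was at 10619, 5144, 2921 and 2422 under K/BxN ST in TASTPM and at 1762, 1585 and 2251 in the controls, without overlap, as were 2.67% of tested genes (log2 fold change 1.26, adjusted p = 0.964 by limma, and 0.53 without the *Lyz2*-high libraries). In WT *Zyx* was at 9796, 6683, 1997 and 2258 under K/BxN ST and at 2308, 1383 and 2112 in the controls, which overlapped (1.13, and 0.17 without the *Lyz2*-high libraries), and its 2 highest libraries in each genotype were *Lyz2*-high. *Dab2*, an endocytic adaptor that binds integrin tails, was at 1313, 485, 205 and 194 under K/BxN ST in WT and at 0.937, 181 and 215 in the controls (3.24, adjusted p = 0.668 by limma, and 2.24 without the *Lyz2*-high libraries), and its difference was 1.01 without WT Control ST library 1, which had 1 read. In TASTPM *Dab2* was at 483, 422, 632 and 271 under K/BxN ST, all above its controls at 158, 118 and 205 (1.46, adjusted p = 0.964 by limma, and 1.399 without those libraries), again as 2.67% of genes. *Flna*, encoding filamin A, which links integrins to actin, was at 9496, 6016, 1269 and 2439 against 1309, 1420.0 and 1516 in WT and at 7148, 4354, 1888 and 1285 against 1158, 795 and 2233 in TASTPM, and the groups overlapped in both. It differed by 1.37 and 1.21 (adjusted p = 0.698 and 0.964 by limma), and by 0.32 and 0.29 without the 4 libraries. Of 10 genes that take part in the modification of PSGL-1 for selectin binding, all were tested and none was called. The smallest p among them was that of *Fut4* in WT (1.03, adjusted p = 0.684 by limma, and 0.84 without the *Lyz2*-high libraries) and of the sialyltransferase gene *St3gal4* in TASTPM (1.70, adjusted p = 0.964 by limma, and 0.52 without the *Lyz2*-high libraries), the latter at 3049, 799.9, 336 and 276 under K/BxN ST and 194, 208 and 236 under Control ST, without overlap. *Fut4* in TASTPM was at 346, 196, 268 and 336 under K/BxN ST, all above its controls at 159, 115 and 179.9 (0.90, adjusted p = 0.964 by limma, and 1.01 without the 4 libraries), and 2.67% of tested genes separated as both genes did. *Gcnt1*, encoding an O-glycan branching enzyme, was at 2147, 3663, 4340 and 3982 under K/BxN ST in WT, all below its controls at 4566, 5558 and 5176 (-0.57, adjusted p = 0.734 by limma, and -0.29 without the 4 libraries), as were 3.71% of tested genes.

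The genes whose log2 values followed each of the 10 most closely over the 14 libraries were taken by Pearson's r, as a description across libraries that share depth and the *Lyz2*-high split. *Selplg* was most like *Tmem119* (r = 0.989) and *Scamp2* (0.987), and *Itgb5* was most like *Plod1* (0.986) and *Gm38317* (0.985). *Itgav* was most like *Tgfbr1* (0.967) and *Fgd2* (0.965), and *Itga6* most like *Slc37a2* (0.956) and *Epb41l2* (0.955). For *Itgb7* the closest were *Msrb1* (0.952) and *Mettl9* (0.946), for *Itga4* *Mob3b* (0.952) and *Ctdsp2-ps* (0.927), and for *Itgal* *Igsf6* (0.927) and *Gm10156* (0.920). *Icam1* was most like *Zscan29* (0.944) and *Pik3ap1* (0.942), *Itga9* most like *Rab3il1* (0.944) and *Stau2* (0.935), and *Itgb1* most like *Tm9sf4* (0.888) and *Plcd1* (0.873). Over the 10 libraries that were not *Lyz2*-high, r for these 20 gene pairs ranged from 0.731 (*Itgal* with *Gm10156*) to 0.928 (*Itgb5* with *Plod1*), and no member of the 10 was among the closest genes of another.

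Antisense genes overlap 6 of the 10 (*Icam1*, *Itga4*, *Itga6*, *Itga9*, *Itgav* and *Selplg*) in the GENCODE M39 annotation, and reads of a gene and its antisense partner cannot be told apart with this library kit. Of these partners only *Gm2415* (over *Itga9*, at most 62.1 normalised counts) and *Gm13684* (over *Itgav*, at most 139) were among the genes analysed.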

How the data were processed

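Bulk RNA-seq libraries (n = 14) were made by the authors from sorted microglia with SMART-Seq amplification and the NEBNext Ultra kit, aligned with HISAT2 (2.1) to GRCm39, counted per gene with featureCounts (1.5.2) and scaled with DESeq2. The deposited values are a normalised signal, reads divided by 1 factor per library, and 7 of 14336 entries repeated an identifier and were left out. Whole reads were recovered for 100.0% of values (tolerance 0.01), with 14223015 to 20239175 reads per library. Libraries were grouped by the column headers; only TASTPM K/BxN ST numbers are those of the labels, the others follow the order of the deposited values.

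Groups were fitted together with limma (3.58.1, R 4.3.3, trend) on log2(normalised count + 1), since the unit is not raw counts as planned, after a filter of 10 reads in 7 libraries, with Benjamini-Hochberg adjustment. Genes of the lists that failed it were fitted in a second run. Exact two-sided permutation tests used the mean log2 difference. Alternatives were edgeR (4.0.16) and DESeq2 (1.42.0) on recovered reads, pseudocounts, scalings, no filter, a blood marker covariate, groups fitted alone, and left-out libraries; the scripts were tested on simulated data. Leaving out libraries for the non-overlap counts was chosen after seeing the data. The 10 genes and the gene lists were chosen with earlier results of these data known. Named besides the 10 were fixed partner genes, the 2 genes of smallest p per list and genotype, and the 2 genes of highest r. Positions are from GENCODE M39 (GRCm39), and counting error alone is covered by the read depth given. A fixed partner gene and 1 detail of the genotype are not reported here.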

Additional observations from a re-analysis of the deposited data

How the results depend on the processing

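No paired analysis was possible because the replicate numbers of the labels run from 1 to 14 without repeating between groups. The count of called genes in WT was 0 with a pseudocount of 10, edgeR, each comparison's groups fitted alone, a blood marker covariate or without the 4 *Lyz2*-high libraries, and 127 and 275 with DESeq2 with and without the filter, against 1. DESeq2 with and without the filter gave 16 and 88 genes in TASTPM, 12 and 36 for the interaction and 41 and 84 between genotypes under Control ST, where the covariate and the omission of the *Lyz2*-high libraries each gave 1. Leaving out 1 library at a time gave 0 to 17 genes in WT (17, 14 and 3 without WT Control ST libraries 3, 2 and 1, 6 without TASTPM K/BxN ST library 3, and at most 2 otherwise), 0 to 1 in TASTPM (1 without TASTPM Control ST library 2 or 3), 0 to 3 for the interaction (3 without WT Control ST library 2) and 0 to 11 between genotypes under Control ST (11, 9 and 2 without WT Control ST libraries 3, 2 and 1, 2 without TASTPM Control ST library 2, and at most 1 otherwise). Among the 10 genes, DESeq2 called 2 in WT with and without the filter (*Itgb7*, 10.79 and 10.79, and *Itgal*, 9.45 and 9.45), and every other setting run called 0 in every comparison. With library totals 2 of the 10 genes, not 4, were lower in every WT K/BxN ST library, as were 2.84% of tested genes. Without the *Lyz2*-high libraries 2 were higher and 1 lower in TASTPM (9.46% and 9.32% of tested genes), and 3 higher and 1 lower between genotypes under K/BxN ST (16.8% and 17.0%). The 1 lower was *Itgal* each time, which failed the filter and had no read in the remaining TASTPM K/BxN ST libraries. Leaving out 1 library gave 1 to 2 higher in WT, where 4.74% to 8.92% of tested genes were (2 and 7.71% without WT Control ST library 1), and 4 to 6 lower, where 4.65% to 8.53% were (6 and 7.77% without WT Control ST library 2). It gave 1 to 2 higher and 4 to 5 lower between genotypes under Control ST, where 9.46% to 10.6% and 9.25% to 9.68% were (2 higher without WT Control ST library 1 or TASTPM Control ST library 1 or 2), and 0 to 1 lower between genotypes under K/BxN ST, where 1.26% to 2.1% were (1 and 1.76% without TASTPM K/BxN ST library 3).

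For the log2 fold changes of the 10 genes in the 2 serum comparisons, and of those at an unadjusted p under 0.15 in the other comparisons, signs changed in 20 of 284 refits that did not leave out a single library. With the blood marker covariate the TASTPM values were -4.68 for *Itgal*, 0.27 for *Itga6*, 0.53 for *Itga9*, 0.42 for *Itgav*, 0.34 for *Itgb5*, -0.44 for *Itgb7* and 0.068 for *Selplg*, and in WT 0.10 for *Itgav* and 0.063 for *Selplg*. Without the *Lyz2*-high libraries they were -4.80 for *Itgal*, 0.31 for *Itga6*, 0.67 for *Itga9*, 0.40 for *Itgav*, 0.37 for *Itgb5*, -0.16 for *Itgb7* and 0.10 for *Selplg* in TASTPM, and 0.062 for *Itgav* in WT. *Itga9* in TASTPM was 0.14 with edgeR and 0.15 with DESeq2 with and without the filter. Leaving out 1 library moved the TASTPM values from -1.50 to 2.28 for *Itgal*, -0.46 to 0.13 for *Itga6*, -0.65 to 0.29 for *Itga9*, -0.36 to 0.11 for *Itgav*, -0.054 to 0.19 for *Itgb1*, -0.53 to 0.062 for *Itgb5* and -0.18 to 0.31 for *Icam1*. The cause of these shifts was not tested. With 3 or 4 libraries a group the intervals above are wide, and they use a spread shared by all groups.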
